A study of Mus musculus with 30 samples.

Results

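The second part of the BMP2 response of control C2C12 cells was described, from day 3 (d3) to day 6 (d6) of treatment. The 3 arrays of C2C12-pMirn0 cells at d6 with BMP2 were compared with the 3 arrays of the same line at d3 with BMP2, chosen by their sample titles, which makes 6 arrays of the 30 in the series. C2C12 is a mouse myoblast line, and C2C12-pMirn0 is a stable line made from it by transduction with the parent lentiviral vector pCDH-CMV-MCS-EF1-copGFP, without a miRNA insert, followed by sorting for the green fluorescent marker copGFP. It is 1 sorted population, and every group of the series carries the vector. The cells were plated in growth medium and then switched to differentiation medium containing 300 ng/ml BMP2. RNA was hybridized to Affymetrix mouse genome arrays, which measure most genes with 1 or more probe sets. Further arrays were used only for reference: the same line before differentiation (d0), the same line at d3 and d6 in differentiation medium without BMP2, and C2C12-pMirn378, a line transduced with the same vector carrying miR-378, at the same days of BMP2 treatment and before it, each with 3 arrays. The triplicates came from repeated cultures of each line, so that p-values measure the spread between cultures of 1 sorted population.

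BMP2 is a secreted ligand of the TGF-beta superfamily that binds receptor serine/threonine kinases, which phosphorylate Smad1, Smad5 and Smad8. In C2C12 cells it diverts a program that would otherwise lead to fused myotubes towards the osteoblast lineage, the cells that lay down and mineralize bone matrix. Feedback inhibitors and other growth factor pathways are known to reshape such a response with time, so that genes induced early need not stay high.

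Levels are given as the average expression value (AEV), the mean of the 3 arrays on the deposited linear intensity scale ± SD, and changes as log2 ratios of d6 over d3. A probe set was called when its Benjamini-Hochberg adjusted p in limma was under 0.005 and its log2 ratio was beyond 0.6 in either direction. The 6 arrays correlated with r = 0.9902 to 0.9925 within a day and with r = 0.977 to 0.9792 between days. The median SD of the triplicates on the log2 scale was 0.106 at d3 and 0.101 at d6 where the level reached the median of all values (76.5), against 0.552 and 0.578 for dimmer probe sets. Of 10 defining osteoblast markers 8 were measured, none of them was called between the days, and 5 were below the median level. The other 2, *Runx2* and *Bglap*, have no probe set with 1 gene symbol alone in the annotation used here and were not analysed here. The study itself shows array profiles of both. Skeletal muscle markers were still present, with summed levels of 20671 to 23491 at d3 and 16022 to 17811 at d6, and 2 of 7 fell. The adipocyte markers summed to 10733 to 11532 at d3 and 13758 to 14068 at d6, with 0 of 8 called. None of the 7 chondrocyte, 4 smooth muscle, 5 macrophage or 5 endothelial markers was called, and the macrophage and endothelial lists summed to no more than 409.1 and 119.4 on any of the 6 arrays. In a culture of mixed cells, fewer cells of a type and less RNA per cell cannot be told apart, and the part of cell mixture in the changes below was not tested.

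Between d3 and d6, genes for matricellular signals (*Thbs1* and, on its dimmer probe sets only, *Ccn1*) and cytokines (*Il33*, *Cxcl12*) fell. So did BMP and activin pathway members (*Bmp4*, *Fst*, *Inhbb*) and part of the genes of mitosis and muscle structure. The glutathione transferases *Gsta2* and *Gsta4*, the metallothioneins *Mt1* and *Mt2*, the collagenase *Mmp13* and the signaling inhibitor *Spry1* rose. Among bone-related genes *Omd*, *Vdr*, *Mgp* and *Tnfrsf11b* fell and *Lum* rose, while most, such as *Alpl*, *Col1a1* and *Dcn*, were not called. Of 45101 probe sets, 300 rose (0.665%) and 811 fell (1.8%), which corresponded to 223 and 582 named genes. The median log2 ratio was 0.79 among those that rose and -0.87 among those that fell, and 78 and 275 of them changed by more than 1 log2 unit. The d3 and d6 arrays did not overlap in any of the 300 and 811, whereas over all probe sets 12.6% lay wholly higher and 16% wholly lower at d6. The excess of falls depended in size on scaling, with 300 higher and 811 lower (27.0% higher) in the values as deposited, 375 and 675 (35.7%) after quantile normalization and 415 and 646 (39.1%) after scaling by the median of bright probe sets. The median of all probe sets moved by -0.04, 0.01 and 0.02 under these settings. The calls used the spread of all 30 arrays: with the 6 arrays alone, which leave 4 residual degrees of freedom, no probe set was called at the same thresholds, although 3626 were higher and 5151 lower at an unadjusted p under 0.05.

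Set against d0, the falls were of 3 kinds. Of the 811 probe sets, 289 had been above d0 at d3 and so peaked at d3 (0.641% of all probe sets), 220 had already been below d0 and fell further, and 302 had not been called at d3. Of the 289 that peaked, 174 were not called against d0 at d6, 109 were still above d0 and 6 were below it. The rises divided in a similar way, since 112 of the 300 had been below d0 and so were lowest at d3 (0.248% of all probe sets), 82 had already been above d0, and 106 had not been called at d3. Of the 112, 71 were not called against d0 at d6, 37 were still below it and 4 were above it. Both steps use the d3 arrays, so these counts describe the shape of the time course and do not test it.

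The 10 sharpest peaks at d3 included 4 secreted factors, *Thbs1*, *Il33*, *Edn1* and *Cxcl12*, and 2 hair keratins. *Thbs1* encodes thrombospondin 1, a matricellular protein that activates latent TGF-beta. Its intensities were 10104, 9292 and 9812 on the d3 arrays and 1034, 1184 and 948.6 on the d6 arrays, a 9.25-fold fall (log2 ratio -3.21, SE 0.18, adjusted p = 8.49e-11). All d6 arrays were below the d0 AEV of 1664, and a second *Thbs1* probe set fell from 16381 ± 1065 to 3615 ± 120. *Il33*, a cytokine of the interleukin 1 family, went from 6052, 6504 and 6280 to 1034, 1031 and 1241 (log2 ratio -2.51, adjusted p = 3.36e-11), and its d6 level remained above the d0 AEV of 532.9. *Edn1*, the vasoactive peptide endothelin 1, read 932, 1007 and 1024 at d3 and 183.6, 222.1 and 246.7 at d6 (log2 ratio -2.19, adjusted p = 5.7e-07). The chemokine *Cxcl12* read 861.9, 816.5 and 1005 at d3 against 219.3, 238.6 and 219.8 at d6 (log2 ratio -1.98, adjusted p = 1.21e-07). None of these 4 genes had overlapping arrays between the days, as held for every called probe set. *Nkd2*, an inhibitor of Wnt signaling, fell from 596.2 ± 57.0 to 129.8 ± 42.3 (log2 ratio -2.25), although only 1 of its 4 probe sets was called. *Aldh3a1*, an aldehyde dehydrogenase, fell from 892.2 ± 32.1 to 219.2 ± 27.1 (log2 ratio -2.03), which was close to its d0 AEV of 225.3. The hair keratins *Krt33b* (log2 ratio -3.34) and *Krt31* (-2.03) had low d6 AEVs of 26.7 and 58.7, below the median level of the arrays. *Cpm*, a membrane carboxypeptidase, had AEVs of 271.7 ± 10.9 at d3 and 60.8 ± 3.8 at d6 (log2 ratio -2.16). Its second probe set was not called (-1.26, adjusted p = 0.186), and with a robust variance model the adjusted p of the first was 0.00716. *P4ha3*, a subunit of collagen prolyl hydroxylase, fell from 452.0 ± 46.4 to 141.1 ± 20.5 (log2 ratio -1.68).

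**Figure D1:**
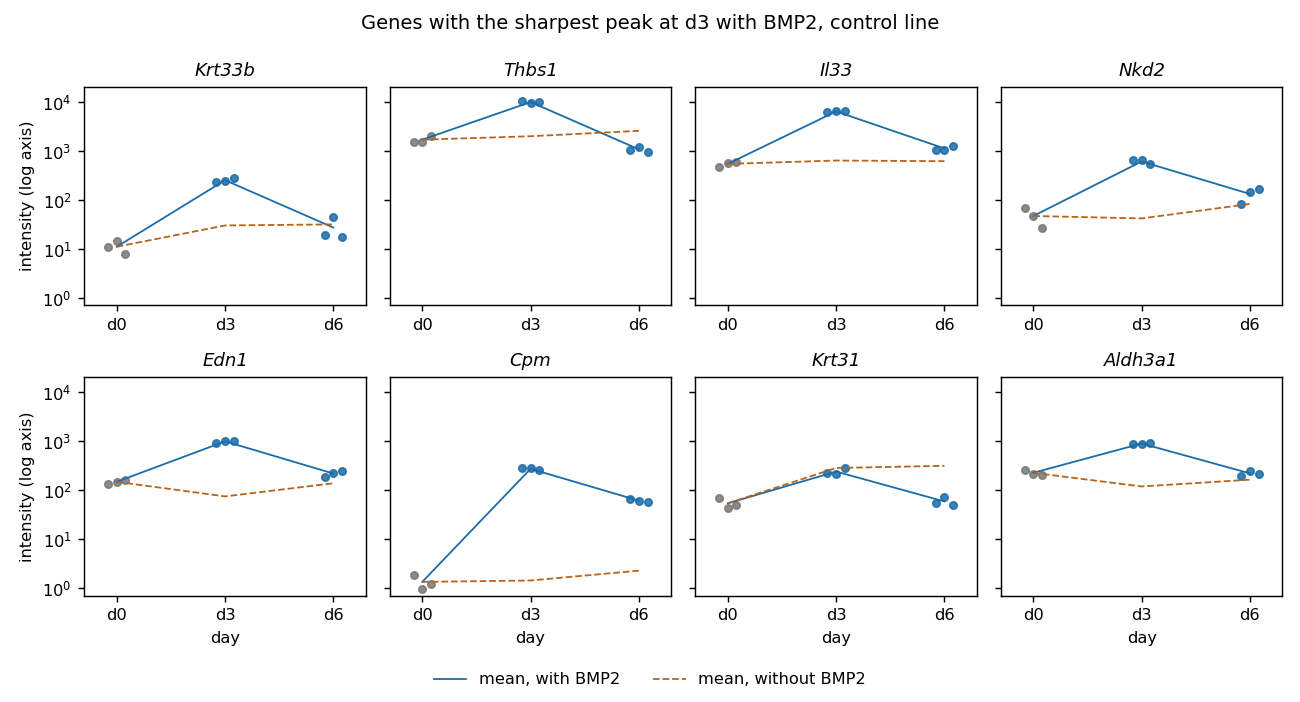
Intensity on a log axis at d0, d3 and d6 for the 8 genes with the sharpest d3 peak in C2C12-pMirn0 cells. Points are single arrays, 3 per day, solid lines join the means with BMP2 and dashed lines the means without BMP2. The d3 points stand above both the d0 and the d6 points in each panel, and for the d6 points the rule for naming genes required this. For example, *Thbs1* read 9292 to 10104 on the d3 arrays against 948.6 to 1184 on the d6 arrays.

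*Ccn1*, another matricellular protein, showed that probe sets of 1 gene can disagree. One probe set fell from 1634 ± 12.9 to 287.1 ± 7.69 (log2 ratio -2.51, adjusted p = 6.06e-14) and a second from 1702 ± 98.8 to 313.6 ± 26.0 (-2.44). The other 2, which were brighter, had log2 ratios of -0.29 and -0.51 and were not called. *Ccn2*, the related connective tissue growth factor, likewise was not called, at 22537 ± 1463 and 17582 ± 1018 (log2 ratio -0.36). Of 28 measured genes for matricellular and adhesion proteins 4 fell and 0 rose, and their median log2 ratio was -0.10. Here and in the lists below each gene stands for its brightest probe set, on which 0.951% of 18194 genes rose, 2.66% fell and the median log2 ratio was -0.04. The lists were written with earlier results of these data known, so the shares of members called describe the lists and do not test them. The members that fell were *Thbs1* (-2.18), *Npnt* (nephronectin, an integrin ligand, -1.31), *Thbs2* (-0.87) and *Ccn3* (-1.11). *Npnt* fell on all 5 of its probe sets, from 7137 ± 229 to 2882 ± 113 on the representative one. The *Ccn3* call was lost without any 1 of the 3 d3 arrays or of d6 replicates 1 and 2 (adjusted p from 0.0090 to 0.0226).

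A few ligand and inhibitor genes of the BMP pathway were lower at d6. *Bmp4*, a ligand closely related to BMP2, gave 1622, 1532 and 1768 at d3 and 612.7, 589.8 and 496.7 at d6 (log2 ratio -1.54, SE 0.23, adjusted p = 6.8e-05). The d6 arrays remained well above the d0 AEV of 77.6. *Fst* encodes follistatin, which binds and neutralizes activins and some BMPs. It gave 2506, 2748 and 2525 at d3 and 1037, 1115 and 1113 at d6 (log2 ratio -1.25, adjusted p = 8.49e-11). *Bmper*, a secreted BMP-binding protein, fell from 272.1 ± 18.9 to 103.2 ± 9.0 (log2 ratio -1.40). In contrast, *Id2*, an inhibitor of basic helix-loop-helix factors and a Smad target, rose from 4864 ± 216 to 7656 ± 444 (log2 ratio 0.65, adjusted p = 0.000214), a call that was lost after quantile normalization at 0.59. *Id1*, the best known direct target, had AEVs of 3739 ± 135 and 4495 ± 155 (log2 ratio 0.27) and was not called. Of 22 BMP targets and inhibitors 1 rose and 2 fell (median -0.05), and of 21 BMP ligands, receptors and Smads only *Bmp4* changed (median -0.01). Most of both lists was therefore not called between the days.

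Among bone-related genes, the late change was selective. *Omd* encodes osteomodulin, a keratan sulfate proteoglycan of bone. It gave 14832, 14865 and 13689 at d3 and 6891, 7092 and 6789 at d6 (log2 ratio -1.06, adjusted p = 5.33e-05), and so peaked at d3. *Vdr*, the vitamin D receptor, fell from 2250, 1921 and 2086 to 1096, 1052 and 1072 (log2 ratio -0.96, adjusted p = 1.59e-06), and its second probe set fell as well (-0.80). *Mgp*, matrix Gla protein, an inhibitor of calcification, fell from 2810, 2475 and 2649 to 670.7, 820.9 and 749.3 (log2 ratio -1.83, adjusted p = 2.33e-11). In each of these 3 genes, as in every probe set called lower, the lowest d3 array exceeded the highest d6 array. *Tnfrsf11b*, osteoprotegerin, the decoy receptor that limits osteoclast formation, had d3 intensities of 182.2, 195.0 and 204.4 and d6 intensities of 26.2, 17.8 and 28.4 (log2 ratio -3.03). With values under 50 set to 50 that ratio was -1.95. *Bmp1*, the procollagen C-proteinase, fell by 0.61 on the log2 scale and was not called after scaling by the median of bright probe sets (-0.55) or without d3 replicate 1 or d6 replicate 1 (-0.56 and -0.56). *Lum*, the proteoglycan lumican, went the other way, from 421.4, 455.6 and 428.3 to 1080, 1141 and 855.4 (log2 ratio 1.23, adjusted p = 0.000629). That call was lost without d6 replicate 2 (adjusted p = 0.00507) and in a fit of the control line alone (0.0156).

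Other osteogenic genes did not pass the thresholds, some with ratios near 0 and some with lower d6 levels. *Alpl*, the alkaline phosphatase of mineralizing osteoblasts, gave 2526, 2289 and 2263 at d3 and 2369, 1983 and 2221 at d6 (log2 ratio -0.11, SE 0.21, adjusted p = 0.855). Its arrays overlapped between the days. The probe sets of *Col1a1*, a chain of type I collagen, differed: one had AEVs of 1591 ± 258 and 1594 ± 27.1 (log2 ratio 0.01, SE 0.30), and the brighter one 2750 ± 27.8 and 2101 ± 37.5 (-0.39, SE 0.12, adjusted p = 0.0412, not called). Only the dimmer one was flat. *Dcn*, decorin, had AEVs of 17017 ± 1209 and 20073 ± 1013 (0.24, adjusted p = 0.185). *Sp7*, the transcription factor osterix, had arrays of 991.6, 1224 and 1053 at d3 and 685.1, 666.4 and 683.9 at d6, which did not overlap. Its log2 ratio was -0.68 with an SE of 0.20, and the adjusted p of 0.0322 missed the threshold. *Dlx5*, a homeobox factor, was dim at 48.8 ± 17.6 and 47.2 ± 10.5. *Fgfr3* (log2 ratio 0.06), *Pdgfra* (-0.41), *Kazald1* (-0.42), *Wnt5a* (0.48) and *Wnt10a* (-0.40) were not called either. By list, 1 of 21 osteoblast transcription factors fell (*Vdr*; median -0.01), as did 3 of 22 genes of bone matrix and mineralization (median -0.26), with 0 higher in both.

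Collagen genes as a group were little altered, with 1 of 36 chains higher and 1 lower (median -0.09). The chain that fell was *Col8a1*, a short-chain collagen, from 469.7, 387.1 and 456.9 to 102.4, 94.9 and 89.7 (log2 ratio -2.19, adjusted p = 2.51e-12), and all 3 of its probe sets were called. *Col18a1*, the precursor of endostatin, rose from 857.2 ± 30.7 to 1338 ± 17.6 (log2 ratio 0.64). In collagen processing 3 of 20 genes fell (median -0.08), which were *P4ha3*, *Bmp1* and *Lox*. *Lox*, lysyl oxidase, which cross-links collagen, fell from 14738 ± 846 to 9552 ± 223 (log2 ratio -0.62), and not past the minimum ratio after scaling by the median of bright probe sets (-0.57) or without d3 replicate 1 (-0.58). Among 27 matrix proteases and inhibitors 1 rose and 2 fell (median -0.15). *Adamts4*, an aggrecan-cleaving protease, fell from 1045 ± 31.2 to 523.6 ± 53.9, and *Plau*, urokinase, from 936.4 ± 39.0 to 453.6 ± 17.4. The 1 that rose was *Mmp13*.

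*Mmp13* encodes collagenase 3, which cleaves fibrillar collagen and is made by hypertrophic chondrocytes and osteoblasts. Its d3 intensities of 17.0, 7.69 and 28.8 were in the dim range where single arrays scatter, and its d6 intensities were 193.7, 215.4 and 227.4 (log2 ratio 3.77, SE 0.53, adjusted p = 3.82e-05). No d6 array came near the highest d3 array. This was the largest ratio among the named rises, but with values under 50 set to 50 it was 2.08, below the 3.00 of *Gsta2*. *Car6*, a secreted carbonic anhydrase, gave 2425, 2392 and 2663 at d3 and 9355, 8575 and 8897 at d6 (log2 ratio 1.84, adjusted p = 0.000183), starting from a d0 AEV of 36.2. *Spry1*, a feedback inhibitor of receptor tyrosine kinase signaling, gave 426.1, 410.6 and 406.5 at d3 and 1577, 1335 and 1455 at d6 (log2 ratio 1.81, adjusted p = 2.95e-10). It was the only one of 26 FGF and PDGF pathway genes to rise, while 3 fell (median -0.09), *Pdgfd* among them (-0.77). *Chchd10*, a mitochondrial intermembrane space protein, rose from 254.2 ± 42.0 to 1265 ± 64.9 (log2 ratio 2.33), and its second probe set by 1.76. *Ch25h*, which makes 25-hydroxycholesterol, rose from 153.6 ± 24.6 to 723.0 ± 16.6 (2.25). The teneurin *Tenm4* (120.0 ± 7.51 to 468.8 ± 16.7), the Ras-related GTPase *Diras2* (549.6 ± 47.0 to 2113 ± 62.1), the transporter *Abca8a* (57.7 ± 4.66 to 208.5 ± 17.7) and *Hoatz* (157.3 ± 3.33 to 546.4 ± 34.2) rose by 1.97, 1.95, 1.85 and 1.80 log2 units. Only 1 of the 2 *Diras2* probe sets was called. The metallopeptidases *Enpep* (268.8 ± 18.9 to 867.8 ± 46.7) and *Ecel1* (66.7 ± 17.1 to 267.3 ± 27.1) rose by 1.69 and 2.03, and in a fit of the control line alone their adjusted p values were 0.00511 and 0.00665.

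**Figure D2:**
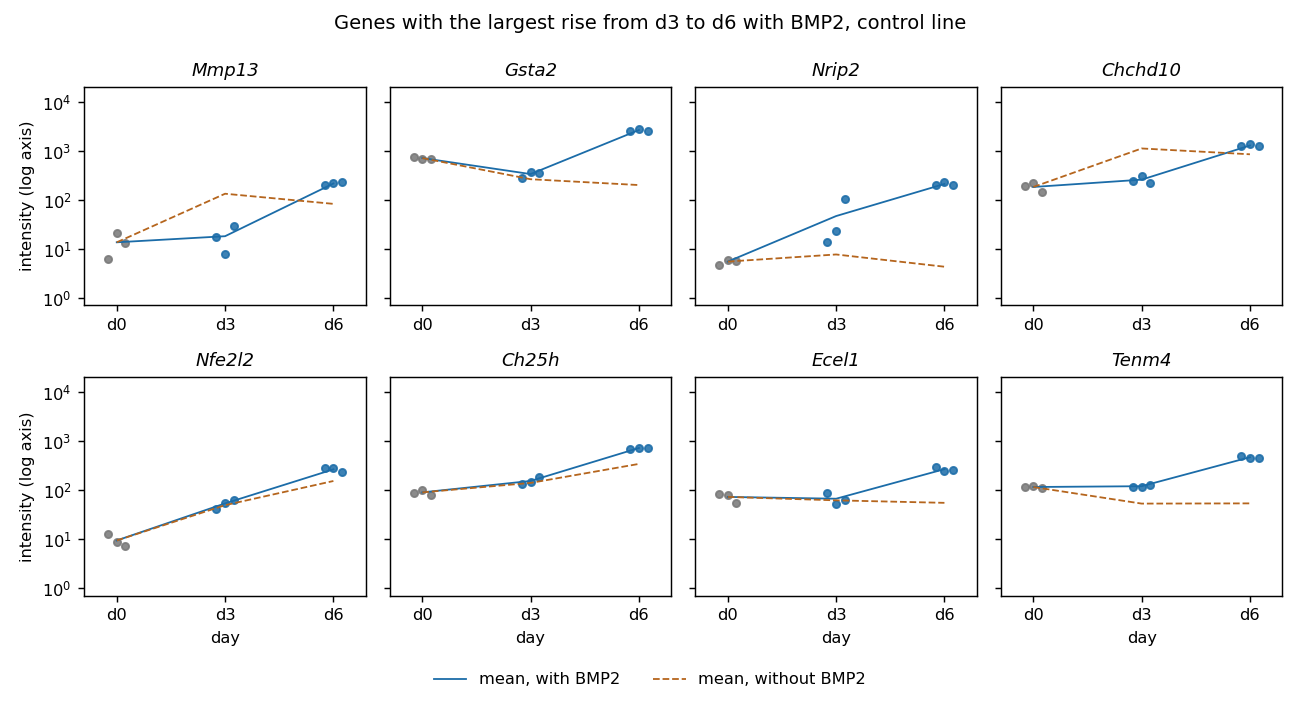
Intensity on a log axis at d0, d3 and d6 for the 8 genes with the largest rise from d3 to d6 in C2C12-pMirn0 cells with BMP2. Points are single arrays, 3 per day, solid lines join the means with BMP2 and dashed lines the means without BMP2. All d6 points lie above the d3 points, as the rule for naming genes required. The d3 points of *Mmp13* (7.69 to 28.8) and *Nrip2* (13.3 to 102.0) scatter most.

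Several genes for detoxification and antioxidant defense rose. Of 21 measured genes for oxidative stress and metallothioneins 6 rose (28.6%, against 0.951% of all genes) and 0 fell, and the median log2 ratio of the list was 0.23. *Gsta2*, an alpha class glutathione S-transferase, gave 278.4, 366.7 and 346.2 at d3 and 2536, 2764 and 2557 at d6 (log2 ratio 3.00, SE 0.16, adjusted p = 3.36e-11). These d6 arrays also exceeded the d0 AEV of 701.5, which had been above d3. *Gsta4*, of the same class, went from 3084, 2805 and 2887 to 8462, 9256 and 8471 (log2 ratio 1.58, adjusted p = 3.84e-10). The metallothioneins, small metal-binding proteins, followed with *Mt1* at 1764 ± 140 and 3828 ± 239 (1.12) and *Mt2* at 1058 ± 165 and 2313 ± 264 (1.13). *Hmox1*, heme oxygenase 1, rose from 1203 ± 86.7 to 2146 ± 165 (0.83). *Gclc*, the catalytic subunit of the first enzyme of glutathione synthesis, rose by 0.60, just past the minimum ratio, and its call was lost with array weights (0.5989), with an offset before log2 (0.5907) or without d3 replicate 2 or d6 replicate 2 or 3 (0.56, 0.57 and 0.58). *Nfe2l2*, the transcription factor that is known to control many of these genes, had a called rise on a dim probe set (53.5 ± 11.0 to 264.9 ± 27.0, log2 ratio 2.33). That call was lost without any 1 of the 6 arrays (adjusted p from 0.00682 to 0.0164), and the bright probe set read 6008 ± 104 and 6647 ± 70.8 (0.15, adjusted p = 0.152). *Mt2* and *Gsta2* were, with *Cmss1*, *Elovl6* and *Eps8*, the 5 clearest examples of genes lowest at d3. *Elovl6*, a fatty acid elongase, gave 436.6, 440.0 and 511.1 at d3 and 1098, 1002 and 990.4 at d6 (log2 ratio 1.16, adjusted p = 1.45e-08), after a d0 AEV of 1314. *Eps8*, an actin regulator, rose from 939.5 ± 112 to 1972 ± 149 (1.07) and *Cmss1* from 360.1 ± 16.5 to 918.2 ± 53.1 (1.35). In all 3 the d3 and d6 arrays did not overlap, as held for every called probe set.

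Stress and early-response transcripts moved in both directions. Of 17 targets of p53, 3 rose and 0 fell (median 0.38). These were *Plk2*, a polo-like kinase (1927 ± 48.1 to 3893 ± 42.9, log2 ratio 1.02), the exonuclease *Aen* (0.79) and the RNA-binding protein *Zmat3* (0.74), whereas *Ccng1* had a ratio of 0.59 that missed the minimum. *Gadd45a*, a growth arrest gene, rose from 6324 ± 213 to 9799 ± 224 (0.63), while its relatives *Gadd45b* (-1.18) and *Gadd45g* (-0.69) fell. Of 36 genes of the unfolded protein and amino acid stress responses 3 rose and 0 fell (median 0.09). *Ddit3*, the transcription factor CHOP, gave 5924, 5756 and 5778 at d3 and 8812, 8754 and 9072 at d6 (log2 ratio 0.61, adjusted p = 0.000371), but 0.55 after quantile normalization and 0.59 without d6 replicate 3. *Ppp1r15a*, a phosphatase subunit acting on eIF2, rose by 0.82, and *Atf3* by 0.65, with the *Atf3* call lost without each array but d6 replicate 3 (adjusted p from 0.00637 to 0.0168). Of 25 immediate early factors 5 rose and 2 fell (median -0.02). *Klf10* (0.77), *Egr1* (0.75), *Myc* (0.67), *Ier2* (0.62) and *Atf3* rose, and *Nr4a2* (-1.23) and *Klf2* (-0.63) fell. *Gadd45a* and *Ier2* lost their calls after quantile normalization, at 0.58 and 0.59, as did *Klf2* at -0.59, and the *Klf2* call was also lost without each array but d3 replicate 2 (adjusted p from 0.00689 to 0.0215). Without d3 or d6 replicate 2 *Ier2* was at 0.59 and 0.57. Of 31 hypoxia and glycolysis genes *Ddit4* (0.86) and *Ero1a* (0.76) rose and 0 fell (median 0.01). Of 33 ribosomal protein genes 2 were called, *Rps6* (0.83) and *Rpl14* (0.71), and 1 of the 33 had a ratio below 0. The median of that list was 0.27, or 0.10 after quantile normalization and 0.33 after scaling by the median of bright probe sets. The *Rps6* call was lost without d3 replicate 3 (adjusted p = 0.00574) or d6 replicate 1 (0.0062). These shared small shifts were not tested as a group.

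Many genes of mitosis fell further from d3 to d6, while most genes of DNA replication did not pass the test. Of 45 measured cell cycle genes 23 fell (51.1%, against 2.66% of all genes) and 0 rose, 40 had a ratio below 0, and the median log2 ratio was -0.84. At d3, 44 of the 45 had already been called below d0, with a median log2 ratio of -2.94 for that step. The share of all genes called below d0 at d3 was not counted here. The replicative helicase subunits *Mcm2*, *Mcm3*, *Mcm4*, *Mcm5*, *Mcm6* and *Mcm7* and the sliding clamp *Pcna* were not called between d3 and d6. *Mki67*, the nuclear antigen of proliferating cells, gave 486.3, 427.3 and 543.6 at d3 and 172.3, 202.4 and 181.3 at d6 (log2 ratio -1.39, SE 0.13, adjusted p = 1.21e-07), after a d0 AEV of 4978. *Ccnb2*, a mitotic cyclin, gave 386.5, 422.9 and 548.3 at d3 and 165.2, 198.7 and 190.0 at d6 (-1.28, adjusted p = 4.97e-07). *Cenpa*, the histone H3 variant of centromeres, gave 535.6, 496.3 and 663.1 against 219.1, 255.3 and 223.6 (-1.27, adjusted p = 1.57e-07) on 1 called probe set of 3. *Prc1*, a microtubule bundler of cytokinesis, gave 470.6, 428.6 and 468.3 against 214.2, 215.7 and 231.1 (-1.05, adjusted p = 1.23e-07). In these 4 genes, as in every probe set called lower, no array of d6 reached the lowest array of d3. Their d6 AEVs were between 184.6 and 232.7. *Cdk1*, the mitotic kinase, was higher but behaved alike, with 1283 ± 73.2 and 706.9 ± 12.4 (-0.86).

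The promoters of these 4 genes are shown because most members that fell hold the same short sequence elements. For each gene a window that holds both elements was taken, so these sequences are not unselected examples. The windows run from 150 bases before to 25 bases after the annotated start, 5′ to 3′ on the gene's strand, from RefSeq (build GRCm38.p6), at chr7:135716355-135716529 (minus strand) for *Mki67*, chr7:80294301-80294475 (plus) for *Prc1*, chr5:30666736-30666910 (plus) for *Cenpa* and chr9:70421530-70421704 (minus) for *Ccnb2*. Capitals mark matches to the cell cycle genes homology region (CHR, searched as TTTGAA) and to the CCAAT box (searched as CCAAT), on either strand.
Mki67: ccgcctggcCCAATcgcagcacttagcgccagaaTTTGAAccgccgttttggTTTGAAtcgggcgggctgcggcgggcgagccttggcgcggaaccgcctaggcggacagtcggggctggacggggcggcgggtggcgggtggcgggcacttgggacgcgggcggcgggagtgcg
Prc1: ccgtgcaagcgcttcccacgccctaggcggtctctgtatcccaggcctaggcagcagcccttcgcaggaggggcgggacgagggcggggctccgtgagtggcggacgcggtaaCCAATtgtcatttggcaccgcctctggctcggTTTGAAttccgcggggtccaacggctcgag
Cenpa: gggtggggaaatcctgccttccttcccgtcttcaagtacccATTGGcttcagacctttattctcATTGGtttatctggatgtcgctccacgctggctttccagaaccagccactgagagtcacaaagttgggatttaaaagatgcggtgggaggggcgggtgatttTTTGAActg
Ccnb2: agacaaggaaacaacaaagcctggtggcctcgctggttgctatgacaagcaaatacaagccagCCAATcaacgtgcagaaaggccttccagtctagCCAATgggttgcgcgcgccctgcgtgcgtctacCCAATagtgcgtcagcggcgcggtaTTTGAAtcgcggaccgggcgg
These elements are known as binding places of the DREAM and MuvB complexes and of the factor NF-Y. A gene was counted when any of its annotated windows, from 250 bases before to 50 after the start, held the element. Of the 23 genes that fell, 20 had a window. TTTGAA on either strand was present for 14 of the 20 (70.0%), CCAAT for 17 (85%) and both for 14 (70.0%). Over all 27025 genes with a window the shares were 20.2%, 41.1% and 7.97%. Of the 22 cell cycle genes that were not called, 17 had a window, and the shares among these were 35.3%, 70.6% and 29.4%. The letters of the 2 motifs do not overlap, and a match is no measurement of binding.

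Part of the muscle genes, still measurable at d3 with BMP2, also fell. *Myog*, the transcription factor myogenin, gave 2810, 2831 and 2739 at d3 and 1353, 1448 and 1533 at d6 (log2 ratio -0.95, SE 0.08, adjusted p = 1.61e-08). *Mymx*, which encodes myomixer, a small protein needed for myoblast fusion, gave 506.9, 424.5 and 568.0 against 99.2, 108.2 and 101.3 (-2.27, adjusted p = 1.39e-11). Both were below d0 at d3 by AEV (4090 and 975.2 at d0), and neither overlapped between the days, as held for every called probe set. Of 40 genes of muscle structure 11 fell and 0 rose, with 36 ratios below 0 and a median of -0.37. *Actc1*, cardiac alpha-actin, fell from 4406 ± 174 to 1816 ± 55.4 (-1.28), titin (*Ttn*) from 2058 ± 178 to 836.9 ± 63.8 (-1.30, on 2 of 6 probe sets), and the acetylcholine receptor subunits *Chrna1* (-1.04) and *Chrng* (-1.26) as well. *Myh1* and *Casq1*, the fast myosin and calsequestrin, peaked at d3, at 6506 ± 443 and 678.5 ± 9.16, and fell by 0.81 and 0.65. For *Myh1*, 2 of 3 probe sets were called lower. *Casq1* was not called after quantile normalization (-0.59) or without d6 replicate 2 (-0.60). *Ckm* (log2 ratio -0.01), *Mef2c* (0.24), *Tnnc2* (-0.46), *Actn3* (-0.50) and *Tnnt2* (-0.41) were not called. Of 16 myogenic regulators *Myog* and the RNA-binding protein *Rbm24* (-0.76) fell and 0 rose (median 0.03). In the list for smooth muscle and myofibroblasts 4 of 18 fell (median -0.31), which were *Myl9*, *Synpo2* and the cofactors of serum response factor *Mrtfa* and *Mrtfb*, by 0.65, 0.88, 0.72 and 0.66. After scaling by the median of bright probe sets *Myl9* and *Mrtfb* were at -0.59 and -0.60 and missed the minimum.

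Some receptors and ligands of other growth factor pathways fell as well. Of 19 genes of TGF-beta and activin signaling 4 fell and 0 rose (median -0.28). *Inhbb*, the beta B chain of activins and inhibins, gave 2525, 2350 and 2445 at d3 and 723.7, 817.9 and 717.4 at d6 (log2 ratio -1.70, adjusted p = 2.85e-10), near its d0 AEV of 844.8. *Tgfb3* fell from 2051 ± 39.0 to 1173 ± 38.0 (-0.81) and the receptor *Tgfbr2* from 2625 ± 112 to 1724 ± 48.5 (-0.61), which was -0.55 after scaling by the median of bright probe sets and -0.58 without d3 replicate 1 or d6 replicate 2. Of 35 Wnt ligands and receptors 5 fell and 0 rose (median -0.32), and they were all receptors: *Fzd2* (-0.97), *Fzd5* (-0.81), *Lrp4* (-0.77), *Fzd1* (-0.64) and *Fzd6* (-0.64). *Fzd1* and *Fzd6* did not pass the minimum ratio after scaling by the median of bright probe sets, nor *Fzd1* without d3 replicate 1, and 1 of 2 *Fzd5* and 1 of 3 *Fzd6* probe sets was called. In IGF signaling 4 of 19 fell and 1 rose (median -0.31). *Igfbp2*, an IGF-binding protein, fell from 5022 ± 297 to 2122 ± 112 (-1.24), the docking protein *Irs1* from 4597 ± 101 to 2108 ± 161 (-1.13) and the IGFBP protease *Pappa* by 0.89. The growth factor *Igf2* rose from 923.6, 756.7 and 751.6 to 1845, 1768 and 1912 (1.19, adjusted p = 6.47e-07). In Notch signaling the ligand *Jag1* rose (1.02), *Hes6* fell (-1.32) and the target *Hey1* read 2680 ± 106 and 3811 ± 11.6 (0.51), below the minimum ratio. The *Pappa* call was lost without each array but d3 replicate 1 (adjusted p from 0.00662 to 0.0134).

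Immune and complement genes changed 1 by 1 more than as groups. Of 27 chemokines and cytokines 1 rose and 2 fell. *Il6* rose from 265.1 ± 24.6 to 670.1 ± 73.5 (log2 ratio 1.34), a call that was lost without any 1 of the 6 arrays (adjusted p from 0.00873 to 0.021), while *Il33* and *Cxcl12* fell. Of 25 complement and acute phase genes 1 rose and 3 fell. *Ptx3*, pentraxin 3, went from 3760, 4126 and 4125 to 7832, 7507 and 7287 (0.91, adjusted p = 7.83e-06), and *Serping1*, the C1 inhibitor, from 1050, 1108 and 1102 to 516.5, 585.3 and 463.3 (-1.07, adjusted p = 2.8e-06). The d3 and d6 arrays of both were apart, as held for every called probe set. *Hp*, haptoglobin, was dim at d6 (10.7 ± 3.59), so that its log2 ratio of -3.12 became -0.85 with values under 50 set to 50. The *Hp* call was lost without d3 replicate 1 or d6 replicate 1 or 2 (adjusted p from 0.00525 to 0.00603). *Ifitm1*, an interferon-induced membrane protein, fell from 852.6 ± 56.8 to 184.5 ± 22.3 (-2.21), *Serpinb6b*, a protease inhibitor, from 307.0 ± 40.3 to 79.4 ± 5.30 (-1.95) and the interferon-induced *Xaf1* from 863.1 ± 68.3 to 430.8 ± 30.6 (-1.00). On the representative probe sets, no member was called among 20 chondrocyte genes, 24 genes of adipogenesis and lipid uptake and 20 of cholesterol synthesis. The same held for 26 genes of fatty acid oxidation and the TCA cycle, 26 Wnt antagonists and targets, 34 lysosomal genes and 31 proteasome genes. The medians of these lists were between -0.25 and 0.18. The Wnt antagonist *Nkd2* was called only on a dimmer probe set than its representative one (log2 ratio -1.70, adjusted p = 0.00801, not called). Of 35 respiratory chain genes *Cox6a2*, a muscle isoform of cytochrome oxidase, rose (998.6 ± 21.5 to 2082 ± 84.6, log2 ratio 1.06).

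**Figure D3:**
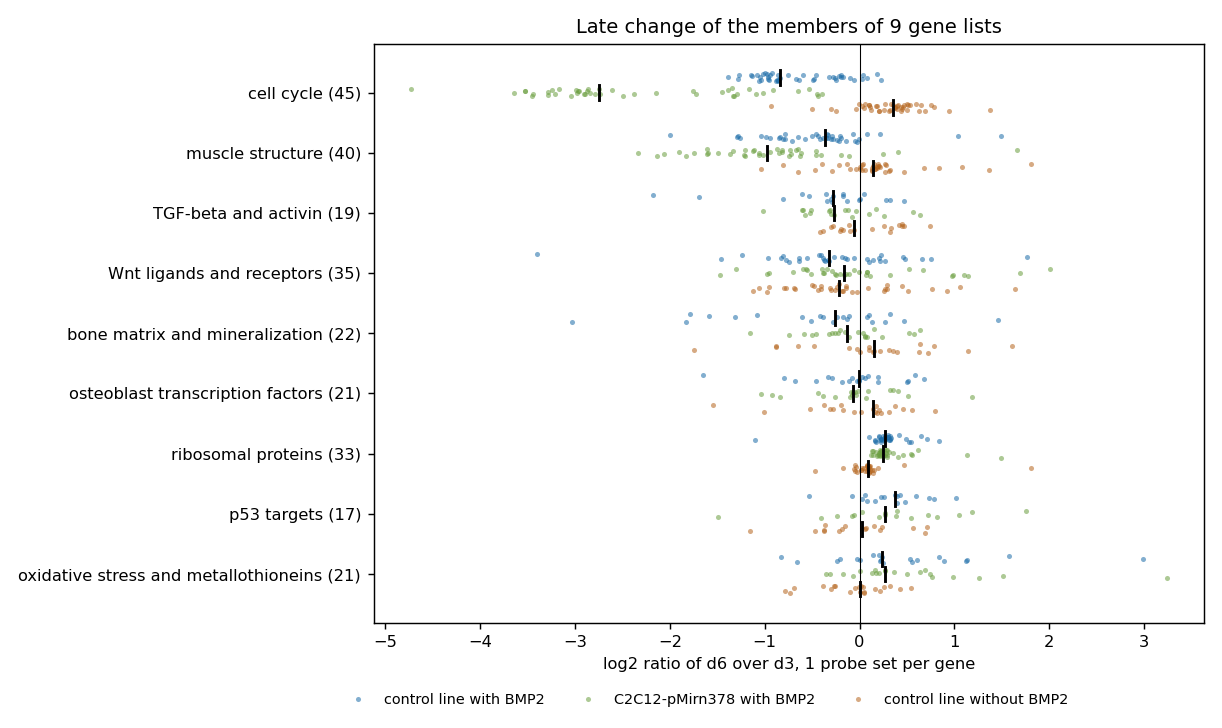
Log2 ratio of d6 over d3 for the members of 9 gene lists, 1 point per gene, with the number of measured genes in brackets and a black bar at the median. Blue points are C2C12-pMirn0 with BMP2, green points C2C12-pMirn378 with BMP2 and brown points C2C12-pMirn0 without BMP2. The cell cycle medians are -0.84, -2.74 and 0.36 in that order.

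The same line over the same days without BMP2 showed a different late change. On these 6 arrays 439 probe sets were higher (0.973%) and 434 lower (0.962%) at d6 than at d3. Of the 300 that rose with BMP2, 133 (44.3%) had the same sign without it, 17 were called the same way (5.67% of the 300 and 3.87% of the 439) and 14 the opposite way. Of the 811 that fell, 371 (45.7%) had the same sign, 59 were called the same way (7.27% of the 811 and 13.6% of the 434) and 73 the opposite way. Across 22058 bright probe sets the log2 ratios with and without BMP2 had r = -0.04, a value across probe sets, which are not independent. Tested directly, the late change with BMP2 was higher than without for 605 probe sets (1.34%) and lower for 1111 (2.46%). Among them were 178 of the 300 that rose (59.3%) and 468 of the 811 that fell (57.7%). The difference uses the same 6 arrays that selected these probe sets, so the shares are a description and no separate test. By gene, 1.53% rose and 0.973% fell without BMP2, and the difference was higher for 1.82% and lower for 4.03%.

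On the falling side, the largest ranked differences to the cultures without BMP2 were mostly in matrix genes. The ranking took only probe sets with an AEV of at least 200 at d3 or d6 with BMP2 in the control line. It also required that these d3 and d6 arrays did not overlap, so genes that changed only without BMP2 could be missed. *Cthrc1*, a collagen triple helix repeat protein, fell with BMP2 from 1560 ± 39.0 to 526.1 ± 19.5, while without BMP2 its AEVs were 30.5 ± 3.89 and 122.1 ± 16.5 (difference of log2 ratios -3.57, adjusted p = 1.73e-09). *Col8a1* rose without BMP2 from 511.5 ± 57.8 to 1480 ± 59.1 (difference -3.73). *Postn*, the matricellular protein periostin, was at 15882 ± 775 and 10891 ± 191 with BMP2, and at 1101 ± 53.3 and 11061 ± 722 without (difference -3.87, adjusted p = 2.35e-14), so that its d6 levels met. Its late ratio with BMP2 of -0.54 missed the minimum, and was -0.66 and called after quantile normalization. *Cd24a*, a surface glycoprotein, rose without BMP2 from 115.4 ± 17.7 to 1446 ± 116 and was not called with it (difference -4.20). *Thbs1* was at 1955 ± 317 and 2521 ± 68.5 without BMP2 (difference -3.59), far from its d3 level with BMP2. On the rising side, *Gsta2* was at 259.4 ± 37.5 and 197.2 ± 14.4 without BMP2 (difference 3.38, adjusted p = 1.17e-09). *Diras2* (difference 2.88), *Mmp13* (4.45), *Nrip2* (3.54) and *Avil* (3.58) had low levels without BMP2, where their highest AEV was 131.2. *Avil*, the actin-binding protein advillin, read 534.5 ± 95.4 and 1836 ± 89.2 with BMP2 and was not called there (adjusted p = 0.021), but it was called with an offset before log2 (adjusted p = 0.00115). *Nrip2*, a nuclear receptor interacting protein, had d3 arrays of 13.3, 22.6 and 102.0 with BMP2, and its late call was lost without d3 replicate 1 (adjusted p = 0.00842) or 2 (0.00735). By list, the difference was lower for 24 and higher for 1 of the 45 cell cycle genes, whose median ratio without BMP2 was 0.36. It was higher for 14 and lower for 0 of the 36 stress response genes, of which 12 fell without BMP2.

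C2C12-pMirn378 cells with BMP2 gave an independent set of 6 arrays over the same days. In these, 1089 probe sets rose (2.41%) and 1482 fell (3.29%). The same sign was found for 288 of the 300 (96.0%) and 782 of the 811 (96.4%), with median ratios of 0.89 and -0.76. Of the 300, 195 were called the same way (65.0%, and 17.9% of the 1089) and 0 the opposite way, and of the 811, 492 (60.7%, and 33.2% of the 1482) and 2. The log2 ratios of the 1111 called probe sets had r = 0.693, and those of 22156 bright probe sets r = 0.646, again across probe sets. The time course had the same shape by its 3 means in 268 of the 289 that peaked (92.7%, against 33.0% of all probe sets) and in 105 of the 112 that were lowest at d3 (93.8%, against 26.6%). Called in both steps were 128 of the 289 (44.3%, against 0.831% of all) and 63 of the 112 (56.2%, against 1.12%).

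**Figure D4:**
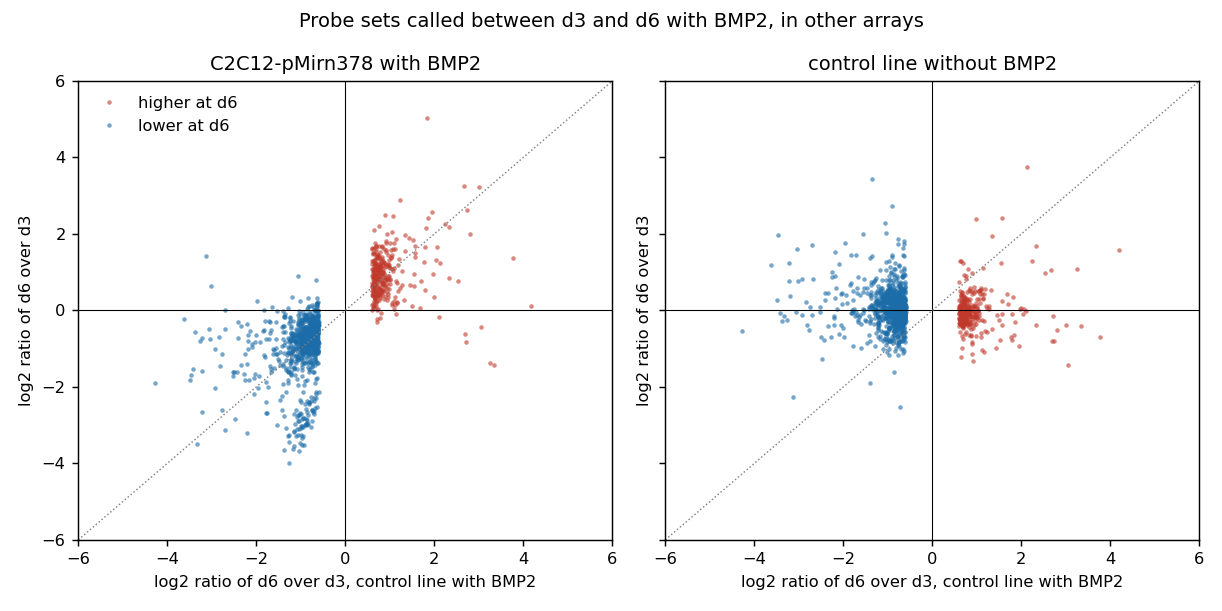
Log2 ratio of d6 over d3 in C2C12-pMirn378 with BMP2 (left) and in C2C12-pMirn0 without BMP2 (right), against that in C2C12-pMirn0 with BMP2, for the 1111 called probe sets. Red points rose and blue points fell in C2C12-pMirn0 with BMP2, and the dotted line marks equal ratios. Of the 300 and 811, 288 and 782 keep their sign on the left, and 133 and 371 on the right.

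Where the lines differed, the control line mostly changed less. The difference of the late changes, control line minus C2C12-pMirn378, was higher for 349 probe sets (0.774%) and lower for 230 (0.51%). Of those called in the control line, 29 rises and 90 falls were smaller there, and 10 rises and 42 falls were larger. These counts also reuse the control arrays that selected the probe sets. By gene, 2.98% rose and 4.85% fell in C2C12-pMirn378, and the difference was higher for 1.25% and lower for 0.764%. The cell cycle list stood out, with 41 of 45 genes lower at d6 in C2C12-pMirn378 (median -2.74) and a tested difference for 38. *Mki67* was at 485.7 ± 58.1 and 185.4 ± 15.5 in the control line and at 2273 ± 130 and 181.2 ± 11.5 in C2C12-pMirn378 (difference 2.26, adjusted p = 4.02e-08), so that the lines differed at d3 and met at d6. *Birc5*, the mitotic regulator survivin, showed 391.9 ± 52.6 and 205.8 ± 4.18 against 2355 ± 38.4 and 203.6 ± 9.19 (2.61, adjusted p = 2.1e-09). *Cdca8*, *Ube2c* and *Kif20a* had differences of 2.64, 2.56 and 2.44 with d3 AEVs of 1823 ± 220, 4541 ± 346 and 1318 ± 122 in C2C12-pMirn378, against 396.0 ± 66.0, 913.2 ± 84.8 and 301.5 ± 38.1. The *Ube2c* fall in the control line had an adjusted p of 0.00555 in a fit of that line alone. *Dscc1*, a cohesion factor, was not called in the control line (0.50) and fell in C2C12-pMirn378 (difference 2.58). Muscle structure genes fell for 30 of 40 in C2C12-pMirn378, with a tested difference for 8.

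In other genes the late change of the control line was the lower one. *Car6* was at 2493 ± 147 and 8942 in the control line, where the d6 arrays read 8575 to 9355, and at 111.4 ± 27.4 and 3625 ± 947 in C2C12-pMirn378 (difference of log2 ratios -3.18, adjusted p = 4.29e-05). *Cdsn*, corneodesmosin, was not called in the control line, at 4079 ± 307 and 5895 ± 390, and rose from 634.4 ± 133 to 3269 ± 358 in C2C12-pMirn378 (difference -1.85). *Egr2* and *Egr3*, zinc finger early-response factors, were not called in the control line (0.39 and 0.22) and rose by 2.27 and 2.31 in C2C12-pMirn378 (differences -1.88 and -2.09). *Cxcl12* fell in the control line, against AEVs of 522.4 ± 54.9 and 616.1 ± 48.2 in C2C12-pMirn378 (difference -2.22, adjusted p = 6.46e-06), and a second probe set differed too (-1.96). For *Fst*, whose AEVs in C2C12-pMirn378 were 2073 ± 42.3 and 1821 ± 175, the difference was -1.06 (adjusted p = 3.45e-07). For *Bmp4*, at 575.0 ± 87.5 and 562.6 ± 20.3, it was -1.52 and missed the threshold (adjusted p = 0.00722). *Myl9* fell by 0.65 in the control line and rose by 0.80 in C2C12-pMirn378 (difference -1.45, adjusted p = 5.23e-09). Stress response genes rose for 16 of 36 in C2C12-pMirn378 against 3 in the control line, with a tested difference for 13. For *Vdr* the late ratios were -0.96 and -0.95, and the difference was not called (SE 0.15, adjusted p = 0.999).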

How the data were processed

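Per the labels and the study's methods, total RNA was hybridized to Affymetrix mouse genome arrays. The authors deposited 1 linear intensity per probe set. The submitters' processing notes name RMA and R 2.4.1, and the study's methods a quantile step, but the 6 arrays had medians from 73.9 to 81.7 and do not share 1 distribution, so the relation of these values to that step was not settled. Here log2 of the intensity was taken without an offset. limma 3.58.1 (R 4.3.3) fitted the means of 10 groups over 30 arrays (20 residual degrees of freedom), with eBayes and Benjamini-Hochberg adjustment over 45101 probe sets, after a check on simulated data. Columns of per-sample values left unused numbered 0. Of the probe sets, 34958 had 1 gene symbol, 932 several and 9211 none. A gene stood for its brightest probe set in lists. Named genes were the 15 largest rises and falls, the 10 sharpest peaks and 5 troughs, and the 5 largest tested differences each way. All of these required an AEV of at least 200 at d3 or d6 with BMP2 in the control line, and those arrays apart. Leading list members and genes named by the study were added. Further list members, such as *Cdk1*, *Casq1* and *Gclc*, were named outside this rule. Members and lists were chosen with earlier results of these data known. Alternatives changed the samples in the fit, the variance model, array weights, normalization, low values, thresholds and replicates. Only 3 arrays per group limit the precision.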

Additional observations from a re-analysis of the deposited data

Results flagged for a closer look

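The late change with BMP2 in C2C12-pMirn0 cells was set against the same days in other arrays, and the difference itself was tested by limma. Against the cultures without BMP2 it was higher for 605 and lower for 1111 probe sets. Against C2C12-pMirn378 cells with BMP2 it was higher for 349 and lower for 230. The named genes with the largest tested differences of log2 ratios follow. They were ranked only among probe sets whose d3 and d6 arrays with BMP2 in the control line did not overlap.

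Relative to no BMP2, the late change was higher for *Mmp13* (4.45), *Avil* (3.58), *Nrip2* (3.54), *Gsta2* (3.38) and *Diras2* (2.88). It was lower for *Cd24a* (-4.20), *Postn* (-3.87), *Col8a1* (-3.73), *Thbs1* (-3.59) and *Cthrc1* (-3.57). *Cd24a*, *Postn* and *Avil* were not called between d3 and d6 with BMP2.

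Relative to C2C12-pMirn378, the late change was higher for the cell cycle genes *Cdca8* (2.64), *Birc5* (2.61), *Ube2c* (2.56) and *Kif20a* (2.44) and for *Dscc1* (2.58). It was lower for *Car6* (-3.18), *Cxcl12* (-2.22), *Egr3* (-2.09), *Egr2* (-1.88) and *Cdsn* (-1.85). *Dscc1*, *Egr2*, *Egr3* and *Cdsn* were not called in the control line. The part of cell mixture in these differences was not tested.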

How the results depend on the processing

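The 6 counts were 300 rises, 811 falls, 289 peaks and 112 troughs at d3, and 1716 and 579 tested differences to no BMP2 and to C2C12-pMirn378. With only the arrays of the groups compared they were 0, 0, 74, 17, 856 and 192, and the lowest adjusted p of the late change was then 0.00842. With an adjusted p under 0.05 and no minimum ratio they were 1893, 2864, 1294, 962, 4560 and 1424. With the 15 control arrays alone the differences to no BMP2 were 1130. No other setting moved a count by over 1.5 times. Leaving out 1 array at a time gave 246 to 280 rises, 644 to 754 falls, 220 to 279 peaks, 93 to 116 troughs, 1418 to 1600 differences to no BMP2 and 457 to 593 to C2C12-pMirn378. Of the 300 and 811, 182 and 496 were called without each of the 6 arrays in turn. No pairing by replicate number was visible, since same-numbered d3 and d6 arrays had deviations correlated at -0.00787, 0.0344 and -0.0113. Differently numbered arrays gave -0.0526 to 0.0582. Such small correlations cannot show that the cultures were unpaired. With a replicate block 304 rose and 817 fell and, of the named genes, only *Il6* lost its call (adjusted p = 0.00626). No called ratio of a named gene changed sign in any setting, whereas 4 uncalled ratios near 0 did (*Ckm*, *Dlx5*, *Col1a1* and *Fgfr3*). Of the 2396 values of named genes under an alternative, 202 lost and 11 gained a call. Probe sets below the median level are limited by their spread.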
